A study of Mus musculus with 12 samples.

Results

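MIN6 is a beta-cell line grown from a mouse insulinoma, and it releases insulin when glucose rises. The glucose response was followed here in MIN6 cells that had been held in trimethylamine N-oxide (TMAO), a metabolite made in the liver from a product of gut bacteria. The response was read as the difference between 3 libraries labelled high glucose with TMAO (HG TMAO, 16.8 mM glucose) and 3 labelled low glucose with TMAO (LG TMAO, 2.8 mM glucose), which are 6 of the 12 RNA-seq libraries of the study. All 6 had 100 nM TMAO for 18 h and by their labels differ only in the final glucose step, whose length is not given in the sources used here. The other 6 libraries are the same pair of glucose levels with vehicle (HG vehicle and LG vehicle, 3 each) and served for comparison. MIN6 cells divide and carry a viral oncogene, unlike most beta cells of an islet. The study describes the 3 samples of a group as independent cell samples, all of the same line.

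When a beta cell metabolises glucose, ATP closes potassium channels, the membrane depolarises and calcium enters. Calcium and cyclic AMP then act through kinases on CREB, the factor that binds cyclic AMP response elements, and through the MAP kinase pathway on other factors. The first genes to answer are the immediate early genes, which need no new protein for their transcription, and many of them encode transcription factors or inhibitors that end the signal.

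Totals in the 6 libraries lay between 16793162 and 22340542 counts, and 3 counts are 1.79e-05% of the smallest. Beta-cell markers stood high: the mean level of Ins2 was 24937 FPKM (fragments per kilobase of transcript, scaled to the mapped total) in LG TMAO and 26148 FPKM in HG TMAO. None of the 8 acinar and ductal markers and 2 of the 11 mesenchymal, endothelial and immune markers passed the filter on low counts, Ptprc, Adgre1, Pdgfrb and Col3a1 being at 0 FPKM in both groups. The 2 that passed were the collagen gene Col1a1 (0.463 FPKM in LG TMAO and 0.331 FPKM in HG TMAO, log2 fold change -0.46, adjusted p = 0.309) and the macrophage gene Cd68 (3.99 FPKM and 4.18 FPKM, 0.07, adjusted p = 0.885), whose libraries did not overlap. Of the 8 markers of other islet cells 4 passed it, and Gcg, the glucagon gene of the alpha cell, stood at 208 FPKM in LG TMAO and 224 FPKM in HG TMAO (log2 fold change 0.11, adjusted p = 0.168). The other 3, Irx2 (-0.69), Sst (0.60) and Ghrl (0.35 on the log2 scale), were below 1.5 FPKM in both groups and none was called. The part of these markers in the results was not tested. The share of counts on long intergenic non-coding genes was 0.373%, 0.445% and 0.483% in the LG TMAO libraries and 0.496%, 0.506% and 0.519% in the HG TMAO libraries, without overlap. Its part in the results was not tested.

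Glucose raised a set of immediate early genes steeply in the TMAO-treated cells, and most of the genes it lowered moved by small amounts. Of 16222 genes tested, 591 (3.64%) passed an adjusted p of 0.05 in the edgeR quasi-likelihood test and are called below, 325 higher (2.0%) and 266 lower (1.64%) in HG TMAO. Without LG TMAO replicate 1 the count was 365, and without HG TMAO replicate 3 it was 344. The falls depended more on single libraries: without LG TMAO replicate 2 there were 334 genes higher and 323 lower, and without any one of the other 5 libraries 231 to 274 higher and 113 to 166 lower. On FPKM values limma called 231 genes higher and 116 lower (pseudocount 1). The rises were larger: 74 genes rose at least 2-fold and 23 at least 4-fold. Those that fell at least 2-fold were 2, Gadd45g and Defb1, the latter noted after its values were seen. The filter on low counts keeps a gene that has counts in 1 group only, so some rises start near 0. With at least 10 counts required in every library, 24 of the genes called higher and 1 of those called lower dropped out. The median log2 fold change was 0.48 among the genes called higher and -0.27 among those called lower, against 0.00 over all genes tested. In 18.4% of all genes tested the 3 HG TMAO libraries did not overlap the 3 LG TMAO libraries, and the same held for 322 of the genes called higher and 264 of those called lower.

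Among genes with a mean of at least 50 normalized counts, Sik1 and Cebpd had the largest rises. Sik1 (chr17:31844248-31855792, minus strand, mm10) encodes a salt-inducible kinase that holds the CREB coactivators of the CRTC family out of the nucleus. It had 137, 166 and 156 normalized counts in LG TMAO and 2021, 2195 and 2149 in HG TMAO. Its log2 fold change was 3.79 ± 0.08 (SE), a rise of 13.8-fold (adjusted p = 3.51e-25). Cebpd (chr16:15887286-15891031, plus strand), a transcription factor of the C/EBP family, stood at 112, 112 and 109 normalized counts in LG TMAO and at 1058, 1076 and 1066 in HG TMAO. The libraries of each group lay within a few percent of each other for this gene, and the log2 fold change was 3.26 ± 0.10 (adjusted p = 1.85e-20). Its exons share 562 bases with Spidr on the opposite strand, and whether counting used strand is not given in the sources used here. Of the genes named below or plotted, Jun, Junb, Cebpb, Zfp36, Btg3, Crem, Spry1, Txnip, Tuba8, Zfp39, Gadd45a, Irs1, Irs2, Neurod1, Nkx2-2, Syt4, P2ry1, Rgs16, Plk1, Keap1, Nr1d1, Dbp and 1810032O08Rik also share at least 100 exon bases with another gene, mostly on the opposite strand, and are uncertain for the same reason.

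**Figure D1:**
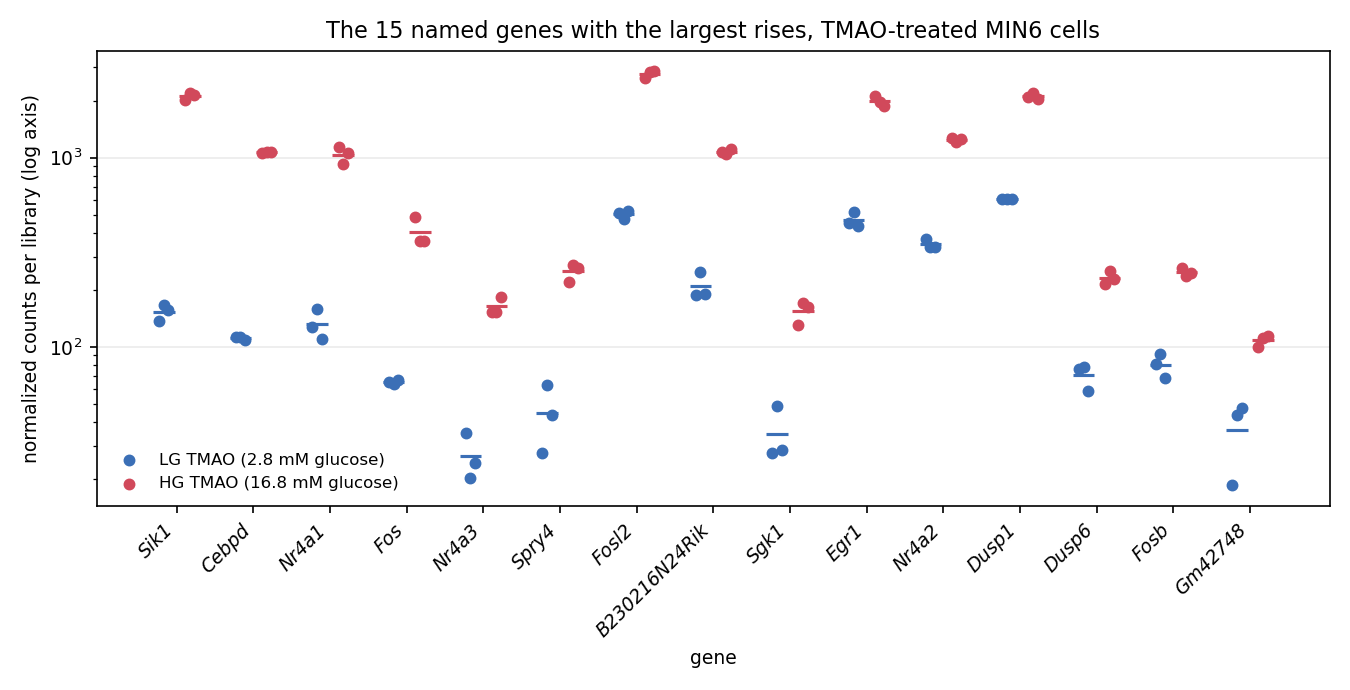
Normalized counts (log axis) of the 15 named genes with the largest rises in each of the 3 LG TMAO (blue) and 3 HG TMAO (red) libraries; each point is a library and each bar the mean of its group. In every gene shown the HG TMAO points lie above the LG TMAO points, from 13.8-fold in Sik1 to 2.96-fold in Gm42748.

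All 3 members of the Nr4a family of orphan nuclear receptors rose. Nr4a1 had 128, 158 and 110 normalized counts in LG TMAO and 1139, 925 and 1054 in HG TMAO (log2 fold change 2.97 ± 0.14, adjusted p = 5.29e-09). Nr4a3 went from between 20.3 and 35.1 to between 153 and 184 normalized counts (2.61 ± 0.20, adjusted p = 6.69e-11), and Nr4a2 from between 336 and 373 to between 1207 and 1265 (1.83 ± 0.07, adjusted p = 3.16e-18). Per length the order in HG TMAO was another one: Nr4a1 stood at 22.2 FPKM, Nr4a2 at 16.2 FPKM and Nr4a3 at 1.44 FPKM.

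The Fos genes, whose proteins pair with Jun proteins to form the factor AP-1, rose as well. Fos had 65.3, 63.9 and 66.8 normalized counts in LG TMAO and 489, 363 and 362 in HG TMAO, a log2 fold change of 2.63 ± 0.13 (adjusted p = 2.06e-15). Fosl2, the most abundant of them, had 510, 476 and 522 normalized counts in LG TMAO and 2653, 2824 and 2859 in HG TMAO (2.47 ± 0.08, adjusted p = 2.98e-14). The log2 fold change of Fosb was 1.62 ± 0.13 (adjusted p = 3.22e-10). Their Jun partners moved apart. Junb rose by 1.07 ± 0.06 on the log2 scale (adjusted p = 6.70e-15), and Jun fell, from 1376, 1132 and 1326 normalized counts in LG TMAO to 999, 980 and 881 in HG TMAO (log2 fold change -0.42 ± 0.07, adjusted p = 6.88e-05).

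Egr1, a zinc finger factor, had 450, 518 and 437 normalized counts in LG TMAO and 2132, 1964 and 1885 in HG TMAO, with no overlap between the groups (log2 fold change 2.09 ± 0.07, adjusted p = 1.33e-20). Among the 32 immediate early transcription factors tested, 15 were called higher and 3 lower, and the list's median log2 fold change was 0.50. These are 56.2% of the list against 3.64% of all genes tested, the background for every list below. This list and those below were written with earlier results of these data known, so a high share called is no independent support. Klf4 (1.18), Ier3 (1.18), Maff (0.84), Ier2 (0.58) and Cebpb (0.53) were among those that rose, by these log2 fold changes. Klf6 (-0.27) and Ier5 (-0.28) fell beside Jun. The call on Klf6 held in 2 of the 6 fits that leave out a library, and those on Ier5 and Atf3 (log2 fold change 0.38) in 1 each.

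In a list of early-response genes, many of them for RNA-binding and antiproliferative proteins, 7 of 11 tested were called higher and 0 lower (63.6% called), and the median log2 fold change was 0.18. Sgk1, a kinase that growth factors and steroids induce and which is no RNA-binding protein, had the largest rise, with 27.3, 48.4 and 28.3 normalized counts in LG TMAO and 131, 171 and 162 in HG TMAO (log2 fold change 2.15 ± 0.18, adjusted p = 4.48e-10). Btg2 (0.89 ± 0.06, adjusted p = 5.73e-12) and Tob1 (0.69 ± 0.06, adjusted p = 4.90e-10), antiproliferative adaptors of the deadenylation machinery, rose less. The RNA-binding gene Zfp36 rose by 0.56 ± 0.12 on the log2 scale and the kinase gene Plk3 by 0.50 ± 0.05. Btg1 (0.17) and Btg3 (0.18), relatives of Btg2, were called in 1 of the 6 fits that leave out a library.

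Of 19 tested MAP kinase phosphatases and Ras-pathway inhibitors, 9 were called higher and 0 lower (47.4% called), and the median log2 fold change of the list was 0.23. The other 10 did not pass the test, with log2 fold changes down to -0.28 in Dusp7 (adjusted p = 0.106), an example chosen after its values were seen. Spry4, which acts between growth factor receptors and Ras, had 27.3, 62.9 and 43.5 normalized counts in LG TMAO and 220, 272 and 262 in HG TMAO (log2 fold change 2.49 ± 0.19, adjusted p = 2.95e-09). Dusp1, a nuclear phosphatase of MAP kinases, had 603, 607 and 602 normalized counts in LG TMAO and 2093, 2194 and 2043 in HG TMAO (1.81 ± 0.06, adjusted p = 3.73e-20). The ERK phosphatase gene Dusp6 went from 76.0, 78.4 and 58.7 to 215, 252 and 228 normalized counts (1.71 ± 0.14, adjusted p = 3.29e-10). Both groups were well separated in each of the 3 genes. Errfi1, a feedback inhibitor of the EGF receptor, rose by 1.38 ± 0.06 on the log2 scale, Spry1 by 1.12 ± 0.12 and Dusp4 by 1.02 ± 0.05. Dusp10 (0.93), Dusp5 (0.90) and Dusp8 (0.23) were the other members called, and the call on Dusp8 was lost without LG TMAO replicate 2 (adjusted p = 0.0509).

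The cyclic AMP list was divided, 5 of 22 tested genes being called higher and 2 lower (31.8% called), and its median on the log2 scale was 0.00. Besides Sik1, Crem rose, which encodes activators and repressors at cyclic AMP response elements and had between 346 and 416 normalized counts in LG TMAO and between 713 and 859 in HG TMAO (log2 fold change 1.02 ± 0.11, adjusted p = 3.02e-05). Rgs2, which speeds the shut-off of G proteins, rose by 0.92 ± 0.07 on the log2 scale. The phosphodiesterase genes Pde4b (0.74 ± 0.06, adjusted p = 4.85e-11) and Pde4d (0.68 ± 0.06, adjusted p = 4.54e-10), whose products break down cyclic AMP, rose as well. Pde10a fell (-0.24 ± 0.05, adjusted p = 0.00252), as did Sik3 (-0.18 ± 0.05, adjusted p = 0.0286), a call that held in 3 of the 6 fits that leave out a library.

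The 300 bases around the start site (250 before it and 50 after it) are shown for 4 of the genes with large rises and 2 of the genes with large falls. Capitals mark each match to the short form of the cyclic AMP response element, TGACG or its reverse complement CGTCA, on which CREB can sit. The sequences are from RefSeq on GRCm38.p6 and run 5′ to 3′ along the gene.
Nr4a1 (chr15:101266596-101266895, plus strand, rose): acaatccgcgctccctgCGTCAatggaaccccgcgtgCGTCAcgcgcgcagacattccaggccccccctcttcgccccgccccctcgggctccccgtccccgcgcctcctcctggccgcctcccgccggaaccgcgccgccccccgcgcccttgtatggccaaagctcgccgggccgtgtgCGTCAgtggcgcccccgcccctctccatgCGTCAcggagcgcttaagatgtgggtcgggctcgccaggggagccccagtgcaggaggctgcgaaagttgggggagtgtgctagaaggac
Nr4a3 (chr4:48045055-48045354, plus strand, rose): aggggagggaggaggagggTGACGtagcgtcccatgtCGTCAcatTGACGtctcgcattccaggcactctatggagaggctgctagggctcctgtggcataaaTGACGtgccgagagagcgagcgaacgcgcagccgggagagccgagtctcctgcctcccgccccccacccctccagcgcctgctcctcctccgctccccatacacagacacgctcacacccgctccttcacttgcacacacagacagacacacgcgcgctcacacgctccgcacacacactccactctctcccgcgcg
Fos (chr12:85473640-85473939, plus strand, rose): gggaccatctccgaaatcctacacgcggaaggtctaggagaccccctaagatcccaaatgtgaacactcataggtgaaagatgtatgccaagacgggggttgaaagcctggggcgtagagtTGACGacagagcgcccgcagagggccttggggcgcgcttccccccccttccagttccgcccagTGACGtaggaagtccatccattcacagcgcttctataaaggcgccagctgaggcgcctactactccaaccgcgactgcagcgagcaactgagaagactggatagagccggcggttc
Dusp1 (chr17:26508423-26508722, minus strand, rose): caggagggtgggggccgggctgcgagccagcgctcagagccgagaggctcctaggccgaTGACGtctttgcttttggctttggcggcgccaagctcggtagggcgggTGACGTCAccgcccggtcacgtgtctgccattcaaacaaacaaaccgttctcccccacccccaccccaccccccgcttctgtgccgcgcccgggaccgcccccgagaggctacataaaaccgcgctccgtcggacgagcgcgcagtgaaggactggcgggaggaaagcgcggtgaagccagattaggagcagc
Gadd45g (chr13:51846425-51846724, plus strand, fell): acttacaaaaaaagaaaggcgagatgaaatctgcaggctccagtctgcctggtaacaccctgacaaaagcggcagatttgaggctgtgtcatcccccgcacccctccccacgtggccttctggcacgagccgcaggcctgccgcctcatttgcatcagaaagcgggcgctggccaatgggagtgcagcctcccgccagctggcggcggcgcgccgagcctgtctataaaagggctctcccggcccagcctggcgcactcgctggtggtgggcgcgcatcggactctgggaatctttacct
Txnip (chr3:96557707-96558006, plus strand, fell): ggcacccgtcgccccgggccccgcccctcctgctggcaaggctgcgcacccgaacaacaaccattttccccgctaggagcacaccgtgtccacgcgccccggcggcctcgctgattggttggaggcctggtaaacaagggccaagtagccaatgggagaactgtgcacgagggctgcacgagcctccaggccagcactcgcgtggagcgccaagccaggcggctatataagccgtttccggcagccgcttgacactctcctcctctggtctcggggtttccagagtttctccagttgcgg

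The windows of Nr4a1 and Nr4a3 hold 4 short elements each, that of Fos 2 and that of Dusp1 3. In Dusp1 a pair of them overlap in the full palindromic element TGACGTCA, which lies 143 to 136 bases before the start. The windows of Gadd45g and Txnip hold 0. The windows shown are a selection and do not stand for all genes that rose or fell. Sik1 and Cebpd rose more than any gene shown and are not among them. Irs2 and Zfp36 also rose, and no short element was found in their windows. A RefSeq promoter was at hand for 228 of the 325 genes called higher, 220 of the 266 called lower and 11028 of the 16222 genes tested, which are 11011 distinct RefSeq genes. For the genes called higher and for the genes tested this is under 80%, so as a check the comparison of shares is void, and the shares describe the matched genes only. With both strands searched, the short element occurred in 128 of the 228 genes called higher (56.1%), in 44 of the 220 called lower, in 3853 of the 11011 distinct genes tested and in 23.0% of all 27025 genes with a promoter. The full element, which also counts as a short one, occurred in 11.4% of the genes called higher, in 1.82% of those called lower, in 3.67% of the genes tested and in 2.03% of all genes with a promoter. Among named genes that rose, Errfi1, Maff, Btg2, Dusp8 and Ppp1r15a held the full element beside Dusp1, and so did Otud7a, which was called lower. The E-box CACGTG occurred in 18.4% of the genes called higher, in 10.9% of those called lower and in 11.5% of the genes tested. For the AP-1 element TGANTCA the shares were 5.26%, 4.55% and 5.98% in the same order. A serum response element (CArG box) was found in 1.75% of the genes called higher and in 1.66% of the genes tested, and the Egr element GCGTGGGCG in 1.75% and 1.41%. A TATA box (TATAAA on the sense strand within the 50 bases before the start) occurred in 5.70% of the genes called higher, in 3.18% of those called lower and in 1.75% of the genes tested. The pattern used for the carbohydrate response element matched 1 gene called higher, Pde4b, and 14 of the genes tested. It matched 0 of the genes called lower, Txnip among them. Elements that depart from this pattern were not searched, so a gene without a match may still hold one. A match is a string of letters in a window and no measurement of binding.

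**Figure D2:**
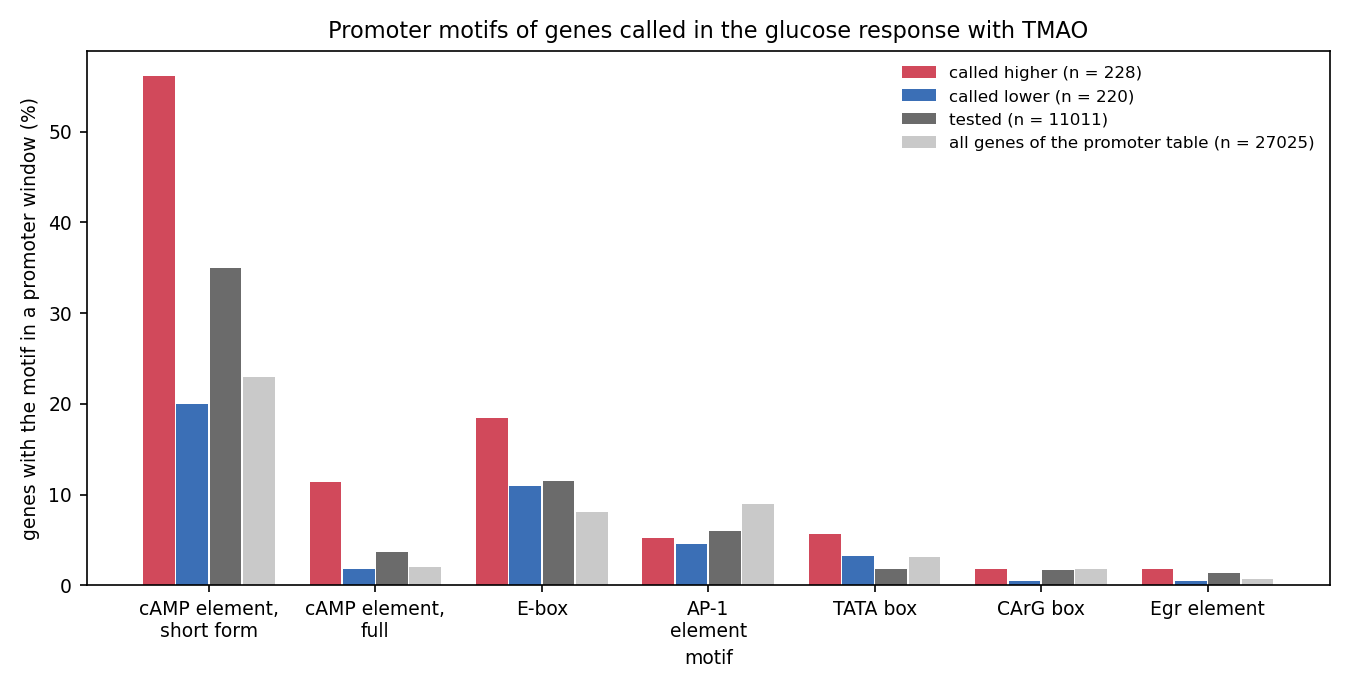
Share of genes (%, bars from 0) with at least 1 match to each motif in a RefSeq promoter window of 300 bases, for genes called higher (red, n = 228), called lower (blue, n = 220), tested (dark grey, n = 11011) and all genes of the promoter table (light grey, n = 27025). The short cyclic AMP response element stands at 56.1% in the genes called higher, and 44 of the genes called lower hold it.

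Single genes of other lists rose too. Of 27 genes of glucose sensing and excitability 1 was called (3.70%, against 3.64% of all genes tested), Gem, a small GTPase that inhibits voltage-gated calcium channels, with 372, 434 and 380 normalized counts in LG TMAO and 1132, 1080 and 1158 in HG TMAO (2.83-fold higher, adjusted p = 1.71e-15). Among 20 genes of insulin signalling, Irs2, the insulin receptor substrate tied to beta-cell survival, rose from 1962, 1933 and 2214 to 4867, 5309 and 5053 normalized counts (1.32 ± 0.06, adjusted p = 3.63e-16) and Pik3r1 rose by 0.68 ± 0.07 on the log2 scale. Irs1 was called lower (-0.27 ± 0.07, adjusted p = 0.0286), a call that held in 2 of the 6 fits that leave out a library. In the circadian clock list of 18 genes, Per1 rose from 974, 1044 and 1056 to 2375, 2478 and 2252 normalized counts (1.21 ± 0.05, adjusted p = 1.49e-16) and Per2 by 0.49 ± 0.09 on the log2 scale. Nr1d1 and Dbp were called lower, by log2 fold changes of -0.27 and -0.28, calls that held in 3 and 2 of the 6 fits.

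The BMP and TGF-beta list moved both ways, 3 of 22 genes being called higher and 2 lower (22.7% called). Tgif1, a corepressor of TGF-beta targets, had 246, 267 and 255 normalized counts in LG TMAO and 608, 598 and 661 in HG TMAO (log2 fold change 1.28 ± 0.08, adjusted p = 8.25e-13). The inhibitor genes Id1 (0.67 ± 0.12) and Skil (0.42 ± 0.09) rose less, and the call on Skil was lost without LG TMAO replicate 3 (adjusted p = 0.0569). Smad6, an inhibitor of BMP receptors, and the BMP transducer Smad9 were called lower, by -0.64 ± 0.14 and -0.30 ± 0.06. The call on Smad6 was lost without HG TMAO replicate 3 or LG TMAO replicate 1, where its adjusted p reached 0.0672. Among receptors and regulators of G protein signalling, 4 of 18 were called higher (22.2%, against 3.64% of all genes tested): the ADP receptor gene P2ry1 (0.46), Rgs4 (0.37), Rgs16 (0.70) and Galr1 (0.24), the last 2 in 2 of the 6 fits each.

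Most falls were shallow, and Gadd45g had the largest among the named genes. Gadd45g, a stress-induced gene of growth arrest, had 1164, 1007 and 1218 normalized counts in LG TMAO and 544, 581 and 478 in HG TMAO (log2 fold change -1.07 ± 0.08, 2.11-fold lower, adjusted p = 9.99e-11). Its relative Gadd45a went the other way, from between 1497 and 1634 to between 2698 and 2914 normalized counts (0.83 ± 0.06, adjusted p = 6.45e-12), and these were the 2 genes called among 14 of the growth arrest and p53 list. Txnip, a thioredoxin-binding protein widely described as raised by high glucose through the factor ChREBP, fell from 2159, 2083 and 1914 normalized counts in LG TMAO to 1229, 1325 and 1175 in HG TMAO (-0.72 ± 0.06, 1.65-fold lower, adjusted p = 3.16e-09). It was the one gene called among 14 of the Txnip and ChREBP list, a count near the 3.64% over all genes, and in that list Arrdc4 had a log2 fold change of 0.18 ± 0.11 (adjusted p = 0.501). Tuba8, an alpha tubulin gene, fell by 0.76 ± 0.10 on the log2 scale (adjusted p = 2.36e-06).

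**Figure D3:**
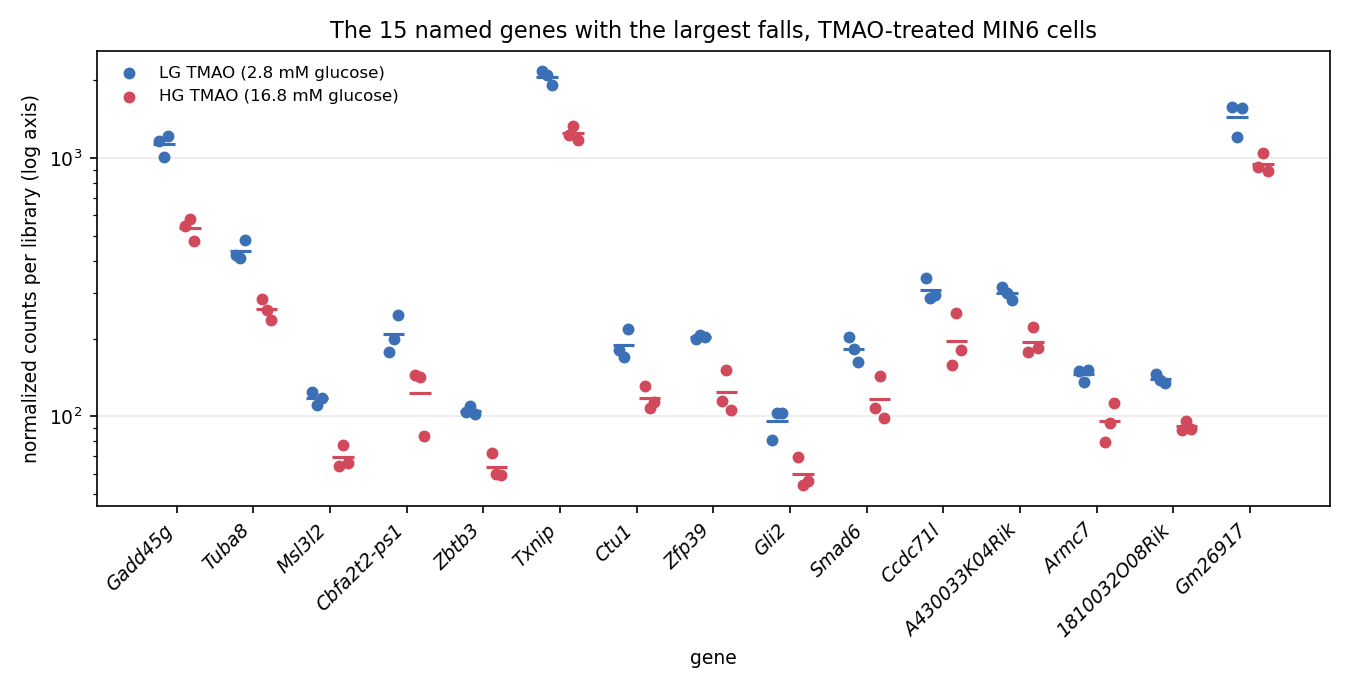
Normalized counts (log axis) of the 15 named genes with the largest falls in each of the 3 LG TMAO (blue) and 3 HG TMAO (red) libraries; each point is a library and each bar the mean of its group. The separation is widest in Gadd45g, 2.11-fold, and the gaps between the groups are small in most of the other genes.

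Of the 15 named genes with the largest falls, 7 were called in every fit that leaves out a library: Gadd45g, Tuba8, Zbtb3, Txnip, Ctu1, Zfp39 and A430033K04Rik. Ctu1, a transfer RNA thiolation enzyme, fell from between 169 and 218 to between 108 and 131 normalized counts (log2 fold change -0.69 ± 0.13, adjusted p = 0.000955). The remaining 8 lost the call in at least 1 such fit, among them the hedgehog factor Gli2 (-0.68 ± 0.17, called in 2 of the 6 fits), Ccdc71l (-0.63 ± 0.15, 2 of the 6) and Armc7 (-0.61 ± 0.14, lost without HG TMAO replicate 1, adjusted p = 0.0847). Cbfa2t2-ps1 is a pseudogene and Msl3l2 is by its name a relative of Msl3, so reads may be split with their parent genes and both are uncertain. Over all genes, 177 of those called higher and 71 of those called lower kept the call in each of the 6 fits.

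Genes called lower had a higher GC content, with a median of 55.1% against 48.6% for genes called higher and 49.5% for genes tested. With each library's trend on GC content removed, 207 of the 266 genes were still called lower, and 313 of the 325 still called higher. Of the genes called lower 95.9% were protein-coding, against 80.6% of those called higher and 79.5% of the genes tested, so the genes called higher stood near the background. Genes called lower also had more counts, with a median of 816 normalized counts against 642 for those called higher and 400 for genes tested. The part of this in the protein-coding share was not tested. Long intergenic non-coding genes numbered 17 of the 325 called higher, 4 of the 266 called lower and 535 of the 16222 tested. One non-coding gene stood among the largest rises, B230216N24Rik (chr1:98031116-98057680, minus strand), with 187, 250 and 191 normalized counts in LG TMAO and 1069, 1049 and 1115 in HG TMAO (2.36 ± 0.10, adjusted p = 4.48e-13), and its exons share 188 bases with Pam on the same strand.

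**Figure D4:**
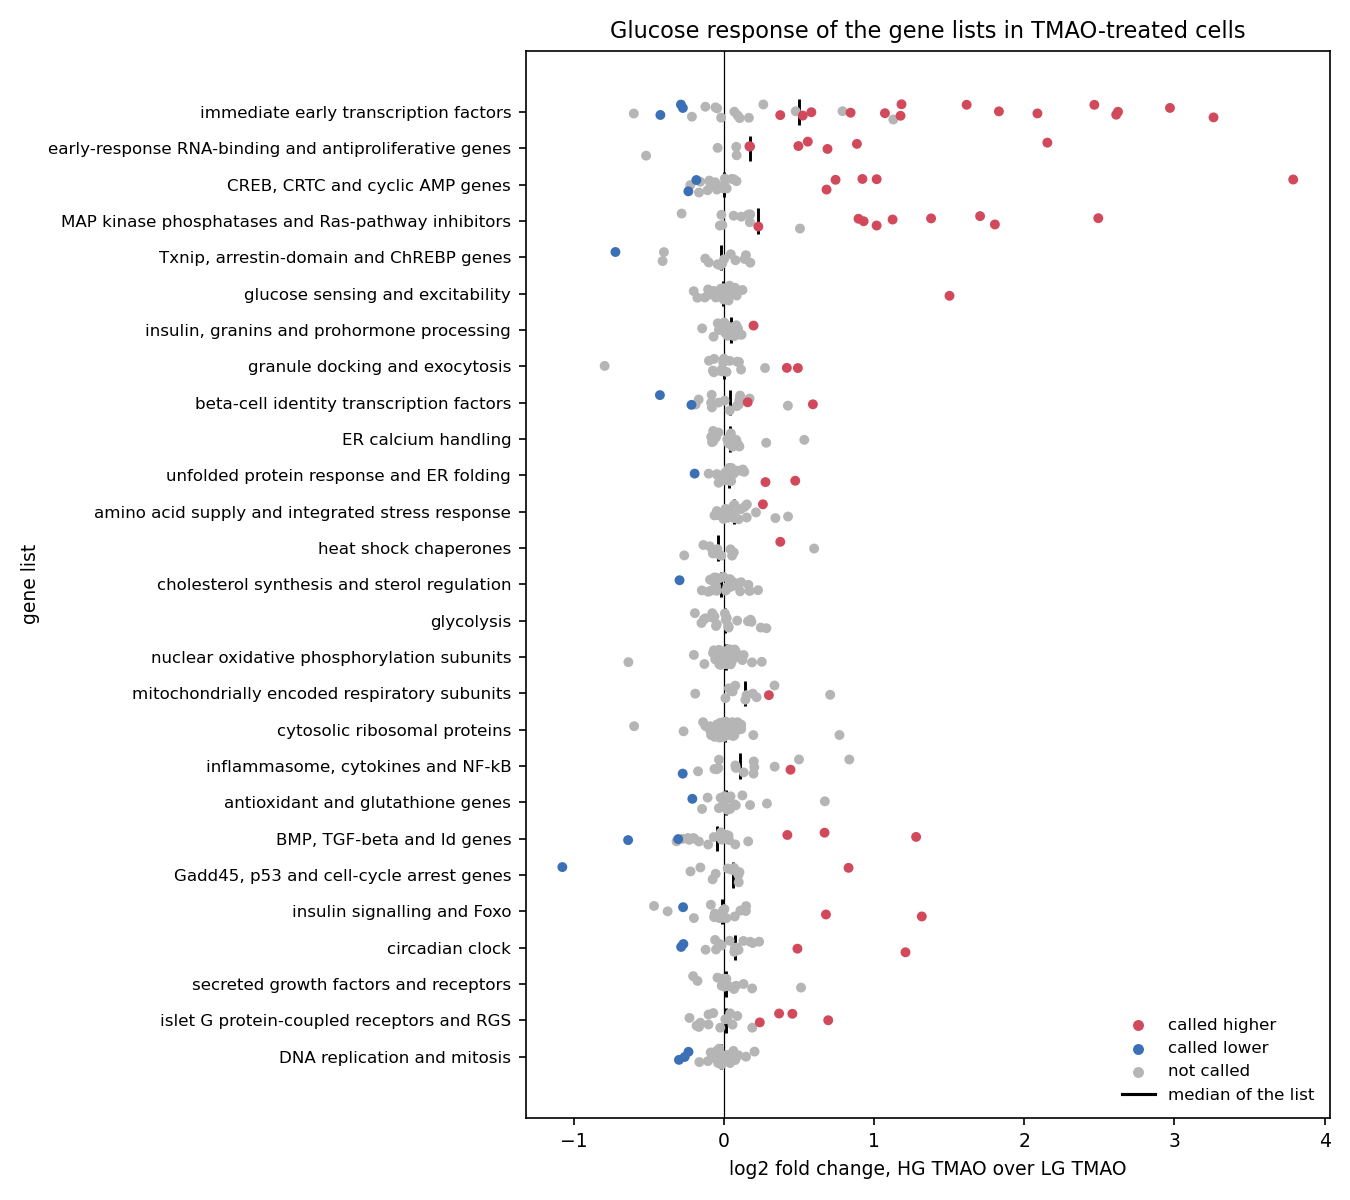
Log2 fold change (HG TMAO over LG TMAO) of every tested member of each gene list; each point is a gene, red where called higher, blue where called lower and grey where not called, and the black tick is the median of the list. Red points gather in the early-response lists at the top, with medians of up to 0.50, and the metabolic, ribosomal and calcium lists sit around 0. The lists were written with earlier results of these data known.

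The lists of beta-cell genes are read against the 3.64% called over all genes tested. Of 20 insulin, granin and prohormone processing genes 1 was called, a share near that background: Vgf, a granule protein (log2 fold change 0.20 ± 0.05, adjusted p = 0.0143, called in 3 of the 6 fits that leave out a library). Ins2 had 660326, 629928 and 566183 normalized counts in LG TMAO and 682258, 631363 and 634645 in HG TMAO, which overlap, and its log2 fold change was 0.07 with a 95% interval of -0.03 to 0.17 (adjusted p = 0.552). For Ins1 the log2 fold change was 0.06 (-0.05 to 0.18, adjusted p = 0.685), for Iapp 0.12 (0.04 to 0.20, adjusted p = 0.115) and for the glucose transporter gene Slc2a2 0.12 (0.04 to 0.21, adjusted p = 0.118). Of 17 genes of granule docking and exocytosis 2 were called (11.8%), and both rose: the vesicle protein gene Syt4 (0.42 ± 0.06, adjusted p = 2.39e-05) and the Rab27 effector gene Exph5 (0.49 ± 0.06, adjusted p = 1.50e-06).

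Beta-cell transcription factors were divided, 2 of 19 being called higher and 2 lower (21.1% called). Neurod1, which drives insulin gene transcription, had 4408, 4401 and 4345 normalized counts in LG TMAO and 6685, 6314 and 6857 in HG TMAO (log2 fold change 0.59 ± 0.04, adjusted p = 3.04e-11). Mnx1 fell from between 862 and 1031 to between 681 and 725 (-0.42 ± 0.07, adjusted p = 0.000325). Nkx2-2 (0.16) was called in 0 of the 6 fits that leave out a library. Mafa had 11005, 9395 and 11668 normalized counts in LG TMAO and 14466, 15257 and 13380 in HG TMAO and did not pass the test (0.43, 95% interval 0.17 to 0.68, adjusted p = 0.0917), and Pdx1 stood at 0.01 (-0.08 to 0.09, adjusted p = 0.972).

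None of the 20 genes of ER calcium handling was called, and in a list of this size 0 is near the 3.64% called over all genes. The log2 fold change of the calcium pump gene Atp2a2 was 0.08 (95% interval 0.01 to 0.16, adjusted p = 0.272) and that of Atp2a3 -0.03 (-0.12 to 0.05, adjusted p = 0.773). Of the metabolic and ribosomal lists, 0 of 20 glycolysis genes were called, a count near the background as well. Among nuclear genes of oxidative phosphorylation 0 of 74 and among cytosolic ribosomal protein genes 0 of 80 were called, against 3.64% of all genes tested. The median log2 fold change was 0.01 in each of these lists. Among 13 mitochondrially encoded subunits, whose median was 0.14, mt-Nd3 was called higher (0.30 ± 0.08, adjusted p = 0.0285, in 3 of the 6 fits). In the unfolded protein response list 2 of 26 genes rose, the chaperone partner Dnajb9 (0.28 ± 0.05) and Ppp1r15a (0.48 ± 0.06), a phosphatase subunit that restores translation, and Ddit3 was called lower (-0.19 ± 0.05, in 2 of the 6 fits). Single calls near the 3.64% over all genes were made in 4 lists: Slc3a2 (0.26 ± 0.05), 1 of 23 amino acid supply and stress response genes, and Bag3 (0.38 ± 0.08), 1 of 14 heat shock genes, were called higher. Mvd, 1 of 24 genes of cholesterol synthesis, and Keap1, 1 of 22 antioxidant genes, were called lower by -0.29 and -0.21, each in 2 of the 6 fits. In the list of inflammasome, cytokine and NF-kB genes Rel rose (0.44 ± 0.08) and the inhibitor gene Nfkbia was called lower (-0.27 ± 0.07, in 3 of the 6 fits). Of 31 genes of DNA replication and mitosis the mitotic genes Aurka (-0.30 ± 0.05), Plk1 (-0.26 ± 0.05) and Cdc20 (-0.23 ± 0.05) fell, the call on Cdc20 being lost without LG TMAO replicate 1 (adjusted p = 0.0568). None of 13 secreted growth factor and receptor genes was called, a count near the 3.64% over all genes as well.

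The response with vehicle called 536 genes (3.30%), from libraries that the response with TMAO does not share. Of the 591 genes called with TMAO, 340 were called there in the same direction. The libraries may not be fully independent: same-number correlations were 0.21, 0.03 and 0.15 between LG vehicle and LG TMAO. Between HG vehicle and HG TMAO they were 0.02, -0.01 and 0.07. The part of this in the shared calls was not tested. Of the 325 genes called higher, 230 were called higher with vehicle too, with a median log2 fold change of 0.53 with TMAO and 0.56 with vehicle, and 122 of the 230 had the smaller response with TMAO. Of the 266 called lower, 110 were called lower with vehicle, with medians of -0.31 and -0.32, and 62 of the 110 had the smaller response with TMAO. The other 95 rises and 156 falls were not called with vehicle, and there the log2 fold change with vehicle had the same sign in 90 and 146 genes. Its median was 0.20 with vehicle against 0.33 with TMAO for those rises, and -0.13 against -0.26 for those falls. No gene was called in opposite directions.

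A test of the difference between both responses called 0 of 16222 genes (0.00%) in edgeR, with 545 at an unadjusted p under 0.05, where 811 would be 5% of the tests, and DESeq2's Wald test called 1. The lowest adjusted p was that of Egr1, whose log2 fold change was 2.09 with TMAO and 2.59 with vehicle (difference -0.50 ± 0.10, adjusted p = 0.188). In LG vehicle it had 317, 347 and 317 normalized counts, below the 437 to 518 of LG TMAO, while the HG libraries of both treatments overlapped, at 1993, 1884 and 2026 with vehicle. Dusp6 had 34.7, 46.4 and 37.6 normalized counts in LG vehicle and 185, 214 and 248 in HG vehicle, a log2 fold change of 2.44 against 1.71 with TMAO (difference -0.73 ± 0.22, adjusted p = 1.00). For Spry4 the log2 fold change was 3.31 with vehicle and 2.49 with TMAO (difference -0.82 ± 0.31, adjusted p = 1.00), and its LG vehicle libraries had 19.8, 20.7 and 31.5 normalized counts. These differences did not pass the test. Gm37314, the fifth gene by unadjusted p among those called, went from 12.7, 24.2 and 19.2 to 33.8, 47.3 and 32.0 normalized counts with TMAO (log2 fold change 1.02 ± 0.28). It stood between 23.8 and 32.5 in LG vehicle and between 20.2 and 25.1 in HG vehicle. Its call with TMAO held in 3 of the 6 fits that leave out a library.

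**Figure D5:**
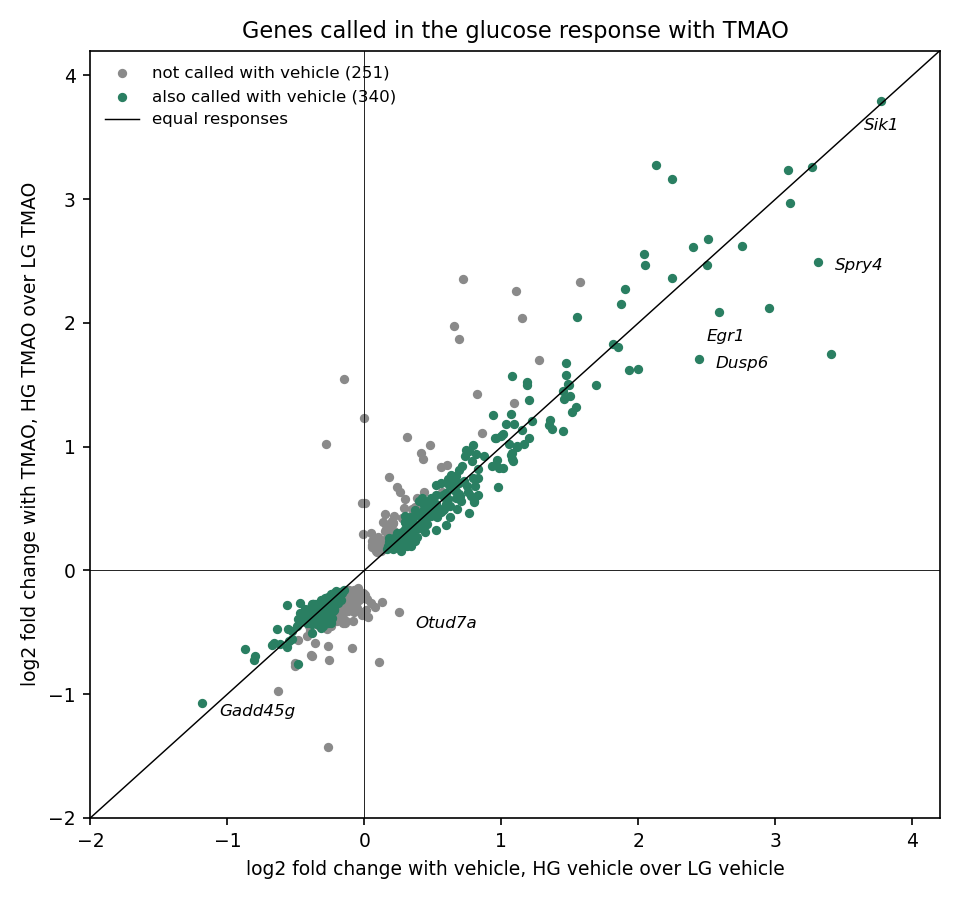
Log2 fold change for glucose with vehicle (x axis, HG vehicle over LG vehicle) and with TMAO (y axis, HG TMAO over LG TMAO) of the 591 genes called with TMAO; each point is a gene, green where also called with vehicle (340) and grey where not, and the line marks equal responses. Of the 74 genes that rose more than 2-fold with TMAO 59 were also called with vehicle, Egr1, Dusp6 and Spry4 lie below the line, and since the genes were chosen by their values on the y axis the grey points lie farther from 0 on that axis.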

How the data were processed

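RNA-seq of MIN6 cells was analysed as 12 libraries in 4 groups of 3, named from the sample labels. The methods describe poly-T selection, a NEBNext Ultra kit and paired-end reads, and the submitters' processing notes name HISAT2 2.0.5, featureCounts 1.5.0-p3, DESeq2 1.16.1 and mm10. The authors deposited counts per gene, not normalized, and FPKM values, used for levels between genes and for an alternative test. The strand setting of counting is not given in the sources used here.

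Counts were tested in R 4.3.3 with edgeR 4.0.16 (filterByExpr, TMM, robust quasi-likelihood F test, all 12 libraries, 4 group means), with p-values adjusted by Benjamini-Hochberg over 16222 genes. Normalized counts are scaled by TMM library sizes. The SE is the log2 fold change divided by the square root of F. Intervals use the degrees of freedom of each gene. Scripts were tested on simulated data. Promoter windows came from a RefSeq table (GRCm38.p6), matched by Entrez identifier, symbol or synonym. Named genes were the 15 largest rises and 15 largest falls among called genes with groups that do not overlap and a mean of at least 50 normalized counts, members of 30 hand-written lists, and the 5 called genes with the lowest p for the difference. The comparison and the lists were chosen with earlier results of these data known. No pair of replicates was alike within sampling noise, and 3 libraries a group limit the precision. DESeq2 1.42.0, limma 3.58.1 on FPKM (log2 scale, pseudocount 1 or 0.1), other filters, thinning, length and GC trends, a replicate block and leaving out each library were alternatives. Some items withheld for evaluation are not reported here.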

Additional observations from a re-analysis of the deposited data

Results flagged for a closer look

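Otud7a and Fuk were set apart because with TMAO every HG library lay below every LG library, while with vehicle every HG library lay above every LG library. Otud7a had 353, 353 and 465 normalized counts in LG TMAO and 312, 311 and 306 in HG TMAO, against 335, 342 and 315 in LG vehicle and 401, 387 and 394 in HG vehicle. The difference of its log2 fold changes was -0.59 ± 0.13 (edgeR adjusted p = 0.614). Fuk had 454, 470 and 479 in LG TMAO and 400, 364 and 413 in HG TMAO, against 389, 400 and 416 in LG vehicle and 469, 418 and 428 in HG vehicle, a difference of -0.38 ± 0.11 (edgeR adjusted p = 1.00). Among the 16222 genes tested, 34 had such opposite and separate responses, and 2 of them were called with TMAO. The call on Fuk with TMAO (adjusted p = 0.0458) held in 0 of the 6 fits that leave out a library and that on Otud7a in 2.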

How the results depend on the processing

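All genes called kept their direction under every alternative in which they were fitted. Sizes moved more: on log2(FPKM + 1), which by construction shrinks the change of low genes, the log2 fold change was 0.98 for Nr4a3, 0.96 for Sgk1, 1.37 for Spry4 and 0.88 for Fosb, and over all alternatives the highest values were 2.87, 2.48, 2.83 and 1.73. The count of 591 called genes became 347 and 337 in limma on log2(FPKM + 1) and log2(FPKM + 0.1), with 116 genes lower in both (66.6% and 65.6% of the calls being rises, against 55.0%), and 383 with 133 lower in an alternative chosen after seeing the data, the 6 TMAO libraries alone with the replicate number as a block. Leaving out a library gave 344 to 657 calls, 231 to 334 of them higher and 113 to 323 lower (50.8% to 67.2% rises): lower calls numbered 151, 166 and 113 without HG TMAO replicate 1, 2 and 3, and 134 and 145 without LG TMAO replicate 1 and 3. With no filter on low counts falls outnumbered rises, with 372 genes called higher and 398 lower (48.3% rises). A replicate block over all 12 libraries gave 783 calls. The same-number correlations between LG TMAO and HG TMAO were 0.04, 0.01 and -0.04, so no pairing was used for this comparison. Between LG vehicle and LG TMAO they were 0.21, 0.03 and 0.15, and the crossed pairs of numbers 1 and 3 gave -0.15 and -0.19. The response with vehicle called 956 genes with the GC trend removed and a replicate block, and 328 to 475 with a library left out (341 without LG vehicle replicate 2, 328 without HG vehicle replicate 3). The difference of the responses called 1 gene in DESeq2, 6 with no filter on low counts and 2 without HG TMAO replicate 1. The CArG box share of genes called lower was 0.00% in the 250 bases before the start alone. The cause was not tested. Over the alternatives the log2 fold change of Gli2 lay between -0.79 and -0.25 and that of Gm37314 between 0.35 and 1.26. Of 98 named genes that were called, 65 kept the call in every alternative, and 3 libraries a group limit what small changes can pass.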

Other observations

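Many of the genes that fell with high glucose in the TMAO-treated cells carry zinc finger names (symbols beginning Zfp, Zbtb, Zkscan, Zscan, Zik or Znf), a group formed after the values were seen and given with no test. They made up 34 of the 266 genes called lower (12.8%), 8 of the 325 called higher (2.46%) and 408 of the genes tested (2.52%). Of the 408 tested, 71.1% had a log2 fold change below 0, against 49.6% of all genes, and their median was -0.10 with TMAO and -0.13 with vehicle. Their falls were between -0.18 and -0.97 on the log2 scale with a median of -0.28, and 10 of the 34 kept the call in each of the 6 fits that leave out a library. Zfp39 had 199, 206 and 202 normalized counts in LG TMAO and 115, 151 and 106 in HG TMAO (-0.69 ± 0.12, edgeR adjusted p = 0.000331), and Zbtb3 104, 109 and 102 against 72.1, 60.0 and 59.6 (-0.72 ± 0.15, edgeR adjusted p = 0.00408). With each library's trend on GC content removed, 28 of the 34 were still called lower, and 16 of the 34 were called lower with vehicle. The median GC content was 54.4% for the 34 and 44.8% for the 408.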
